A study of Mus musculus with 2 samples.

Results

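The cells described here are the 117 macrophage and monocyte-like cells of a mouse colon tumour library that was labelled as γδ T lymphocytes. They were chosen by their transcripts. A cell barcode of the tumour library entered the set when it held at least 500 genes and 1000 unique molecular identifiers (UMIs, one per captured RNA molecule), at most 10% mitochondrial UMIs, a UMI in at least 3 of 7 macrophage genes (C1qa, C1qb, C1qc, Csf1r, Adgre1, Lyz2 and Cd68), and a UMI in fewer than 2 of 3 neutrophil genes (Csf3r, Cxcr2 and Retnlg). The members made up 0.943% of the 12407 tumour cells that passed the cell filters (exact Clopper-Pearson 95% interval 0.781 to 1.13%), and 117 of the 21535 cells of both libraries.

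The study held 1 library from colon tumor (TIL) and 1 from normal colon tissue (IEL), both from C57BL/6J mice of 18 to 20 weeks, and it compared γδ T cells of the 2 tissues. Digested tissue was spun on a Percoll gradient, cells were taken at the 40%/70% interface, and libraries were made with the 10x Genomics 3' v3 chemistry. The protocol names tumour tissue for both samples, and the labels give no sort, gate, tumour model, number of mice or pooling. With 1 library per tissue no difference between tissues could be tested, and each interval below covers counting error only, within 1 library. UMIs of a cell are not independent of each other, so these intervals are narrower than the spread between cells.

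Macrophages and monocytes are phagocytes of the innate immune system. In the colon, circulating Ly6c2-expressing monocytes enter the mucosa through the chemokine receptor Ccr2 and mature into MHC class II-positive macrophages that clear debris and hold inflammation in check. In tumours the same lineage takes on states marked by complement C1q, apolipoprotein E, Trem2, Spp1 or Arg1, and its IL-1β and IL-23 are known to drive IL-17 production by γδ T cells.

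C1qa, C1qb and C1qc encode the 3 chains of C1q, the recognition molecule of the classical complement pathway, and lie next to each other on chromosome 4 (GRCm38, GENCODE vM21: C1qb at chr4:136880129-136886187, C1qc at chr4:136889804-136893065 and C1qa at chr4:136895917-136898803, all on the minus strand). UMIs of all 3 genes were held by 76 members, of 2 by 9, of 1 by 4 and of none by 28. Cells with all 3 pass the rule on these genes alone and cells with fewer do not, so these numbers are partly set by the rule. The promoter window of C1qb is shown because C1qb was the C1q gene found in most members (87 of 117). It is the 250 bases before the start that RefSeq gives, 5′ to 3′ on the gene's strand (GRCm38.p6, chr4:136886201-136886450). Capitals mark GAGGAA, a core bound by PU.1-type ETS factors.
C1qb promoter: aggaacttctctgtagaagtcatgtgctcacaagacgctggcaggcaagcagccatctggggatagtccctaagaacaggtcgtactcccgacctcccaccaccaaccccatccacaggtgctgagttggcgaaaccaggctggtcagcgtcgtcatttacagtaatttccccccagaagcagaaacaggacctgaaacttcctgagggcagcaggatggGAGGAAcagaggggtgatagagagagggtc
The core begins 30 bases upstream of that start. Of the 4 required genes with a promoter in the table, 3 held the core on either strand (C1qb, C1qc and Cd68) and Lyz2 did not. It was present in 23.3% of all 32851 promoter windows of that length, so a match is a description of these letters. Spi1, which encodes PU.1, reached 340.1 counts per 1000000 UMIs (CPM) in the members and 2.01 CPM in other tumour cells, with a UMI in 91 of 117 members.

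The normal colon library held 0 members among 9128 cells, with an exact upper 95% bound of 0.0404% on the share (3 counts would be 0.0329%). No cell there held more than 3 UMIs summed over the 7 required genes. The members had a median of 10753 UMIs (1005 to 52995) and 2650 genes, against 6457 UMIs in the other tumour cells. Barcodes occurring in both libraries numbered 33, of which 0 were members. Summed over the 7 required genes the members held 3 to 1021 UMIs with a median of 80. At the edge of the rule, the 26 members with 3 required genes had a median of 34 such UMIs, and the 40 cells just outside it with 2 required genes had a median of 2. Of the 4 markers of the label, Apoe alone lies outside the rule, and it was found in 108 of 117 members. Lyz2, the lysozyme of myeloid cells, was found in 117, Csf1r, the receptor for macrophage colony-stimulating factor, in 90, and C1qa in 82, which the choice of cells partly fixed.

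Transcripts of T cells divided the members. Of the 117, 60 held UMIs of at least 3 of 7 T cell genes (Cd3d, Cd3e, Cd3g, Trdc, Tcrg-C1, Trac and Trbc2), among them 21 with 6 and 17 with all 7, and 57 held fewer, among them 16 with 0. The 60 had a median of 10830 UMIs and 2860 genes (up to 52995 UMIs), and the 57 a median of 10724 UMIs and 2439 genes (up to 31480 UMIs). The T cell genes took 0.417% of UMIs in the 60 and 0.0155% in the 57, against 0.953% in the other tumour cells. The required macrophage genes moved the other way, with a median of 42.5 UMIs in the 60 and 119 in the 57. In 23 of the 60, and in 0 of the 57, T cell gene UMIs outnumbered the required-gene UMIs, and 24 members reached the median of tumour T cells (63 T cell gene UMIs). In these members the T cell transcripts go against the label. A droplet with a macrophage and a T cell, a macrophage with free T cell RNA and a T cell with free macrophage RNA cannot be told apart here, and no doublet caller was run. Values below are therefore given for all 117 members. For some genes that differ they are also given for the 57 members with fewer than 3 T cell genes, which were found by that count alone. A value not printed for the 57 can still differ. Arg1 had 256 CPM in all members and 467 CPM in the 57, Ms4a7 249.9 and 372 CPM, and Chil3 207 and 192 CPM.

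**Figure D1:**
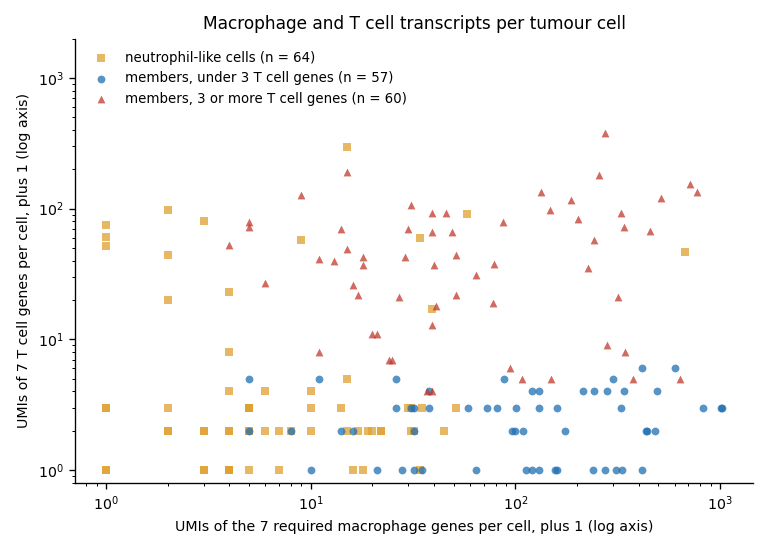
UMIs of the 7 required macrophage genes (horizontal, plus 1, log axis) against UMIs of 7 T cell genes (vertical, plus 1, log axis) for each member and each neutrophil-like cell of the tumour library. The 60 members with 3 or more T cell genes (triangles) reach 377 T cell UMIs, while the 57 others (circles) hold at most 5 over the whole range of macrophage UMIs.

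Markers of other cell types were checked in the members. The 6 fibroblast markers had UMIs in 1 member. Of 6 B and plasma cell markers, those at 0 included Ms4a1 and Mzb1, and the summed level was 11.0 CPM in members and 50.3 CPM in other tumour cells. Neutrophil markers, of which the rule used 3, summed to 154 CPM in members (0 to 6533 CPM per cell, Ly6g, Camp, Ngp and Cxcr2 at 0) and to 138615 CPM in the 64 neutrophil-like cells of the tumour. Dendritic cell markers summed to 293 CPM in members, 441 CPM in the 57, and 73.0 CPM in other tumour cells.

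The members differed from other tumour cells by a broad phagocyte programme. Of 6129 genes at 20 CPM or more in either set of cells, 550 (8.97%) were at least 4-fold higher in members with an interval clear of 1, and 105 (1.71%) were at least 4-fold lower. In the 57 members these were 701 (11.2%) and 684 (10.9%) of 6286 genes, with 537 higher and 104 lower genes called in both. The median gene lay at a log2 ratio of -0.28 (-0.42 in the 57), and ratios below are not centred. Because the members were chosen on macrophage transcripts, these counts and all that follow in this comparison are descriptions with no test. A gene almost absent from other tumour cells reaches 20 CPM through the members alone and is then at least 4-fold higher by construction. Counts of list genes called higher are therefore partly set by this filter. The lower set in the 57 also includes the T cell genes by which the 57 were picked out.

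The gene furthest above other tumour cells was Trem2, a lipid-sensing receptor of tissue macrophages. Trem2 ranged from 0 to 1912 CPM per member with a median of 0, and 52 members held a UMI. Its summed level was 215 CPM in members (354 in the 57) and 0.0655 CPM in other tumour cells, a log2 ratio of 11.68 (10.54 to 13.14). The 65 remaining members showed no Trem2 UMI at their depth.
Apoe, the main lipid carrier of macrophages, was the most abundant of the genes named by rank. It ranged from 0 to 130347 CPM per member with a median of 5328, and summed to 12206 CPM in members (17944 in the 57), 984 CPM in the 64 neutrophil-like cells described below and 12.98 CPM in other tumour cells (log2 ratio 9.88, 9.79 to 9.96). Of the Apoe UMIs in neutrophil-like cells 1 droplet gave 94.2%, and without it their level was 61.4 CPM. After every cell was thinned to 2000 UMIs, which left out 14 members, Apoe was found in 79.6% of members (70.5 to 86.9%) and in 2.32% of 12001 tumour T cells, which should lack it, while unthinned the shares were 92.3% and 7.90%. C1qa, a gene of the rule, was found in 55.3% of thinned members and 0.175% of thinned T cells (70.1% of members unthinned). The share in T cells gives the background of free RNA and of mixed droplets, and Apoe, which the rule did not use, lay above it in the members.

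The other genes furthest above the remaining tumour cells were of a few kinds. Ms4a7 (249.9 CPM, log2 ratio 11.02) and Mpeg1 (453 CPM, 8.76), a pore-forming protein of phagosomes, mark the lineage. C3ar1 (125 CPM, 10.03) is the receptor for complement C3a, and Msr1 (119.8 CPM, 9.33) is a scavenger receptor. Cd300c2 (283 CPM, 9.53) belongs to a family of immune receptors. Tgfbi (806 CPM, 9.63) is a matrix protein, and Mmp12 (248 CPM, 8.95) and Mmp13 (108 CPM, 10.27) are matrix metalloproteinases. Apoc2 (187 CPM, 9.60) is an apolipoprotein and Pla2g7 (244 CPM, 8.96) hydrolyses platelet-activating factor. All of these were called higher in the 57 as well.
The 8 genes furthest below were lymphocyte genes. Il17f, the cytokine of type 17 T cells, had 23.4 CPM in all members, 1.64 CPM in the 57 and 231 CPM in other tumour cells. Nkg7, a cytotoxic granule protein, had 27.5, 6.58 and 189 CPM, and Blk, a Src-family kinase of B cells and type 17 γδ T cells, 59.2, 6.58 and 272 CPM in the same order. Skap1, Gimap6, Ctsw, Sh2d2a and Cd7 were the others. Of the 8, Cd7 kept the largest part of its level in the 57 (31.2 CPM, against 46.8 CPM in all members and 272 CPM in other tumour cells).

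Complement and phagocytic receptors stood together. Of 9 complement genes outside the rule, 5 were measured, all through the members alone, which set the direction of the call. All 5 were higher (median log2 ratio 7.77, against -0.28 over all genes). Besides C3ar1 these were C5ar1, the C5a receptor (200.3 against 1.91 CPM), Cfp or properdin (149 against 2.92 CPM), C3 (46.8 against 0.175 CPM) and Cfb (31.0 against 0.142 CPM, 16.4 CPM in the 57, under the 20 CPM minimum). C2 and Serping1 had 0 UMIs in members. Of the phagocytic and Fc receptors 14 of 14 measured were higher (median 7.95). Those almost absent from other tumour cells were measured through the members alone. The activating IgG receptor Fcgr1 had 92.9 against 0.0983 CPM and the inhibitory Fcgr2b 206 against 0.699 CPM. The mannose receptor Mrc1 had 62.0 against 0.0437 CPM in 29 members, and Mertk and Axl, which bind dying cells, 22.7 and 127 CPM. The adaptor genes Fcer1g and Tyrobp were shared with other tumour cells to a larger degree, at 1947 against 136 CPM and 1559 against 54.4 CPM.

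Antigen presentation was high but uneven. Of 10 measured MHC class II and costimulation genes 9 were higher (median 5.32), and Cd83 was the other (log2 ratio 1.84, 2.56 in the 57). H2-Aa, a class II chain, ranged from 0 to 15231 CPM per member with a median of 1769.9, and was found in 85 of 117. It summed to 2926 CPM in members (4645 in the 57), 181 CPM in neutrophil-like cells (4.91 CPM without the same droplet) and 28.4 CPM in other tumour cells. In the other 32 members it was not detectable at their depth. The costimulatory genes Cd86 and Cd40 were lower in level, at 141 and 55.8 CPM, and both were above other tumour cells (13.7 and 0.655 CPM).

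Lysosome and lipid genes were mostly higher. Of 15 lysosome genes 14 were higher (median 3.49), led in ratio by Lgmn, the protease legumain (644 against 2.26 CPM), and Gpnmb. Ctsb, Ctsd and Ctss, which encode cathepsins, reached 1982, 1121 and 1789 CPM. Gpnmb, a lysosomal glycoprotein of lipid-laden macrophages, had 248 UMIs in 15 members, of which 1 member gave 88.3%. Npc2, a cholesterol transporter, had 859.8 against 293 CPM and was not called. Of 11 measured genes of lipid handling 9 were higher (median 5.41), among them Abca1, a cholesterol exporter (187 against 3.52 CPM), Lpl, lipoprotein lipase (55.1 against 0.0873 CPM in 18 members), and Fabp5 (819.9 against 49.6 CPM). Abcg1 and the droplet protein Plin2 were not called (log2 ratios 0.76 and 1.44).

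Markers of long-lived resident macrophages were partly absent. Of 14 such genes Cd163, Folr2, Lyve1, Timd4 and Vsig4 had 0 UMIs in all members, and Cbr2 had 1. The 5 that were measured were all higher (median 8.999): Cx3cr1, the fractalkine receptor (176 against 6.58 CPM), Pf4 (246 against 0.480 CPM), Igf1 (37.2 against 0.0546 CPM), Il10ra (64.0 against 0.841 CPM) and Mrc1, given above. Of 12 measured monocyte genes 9 were higher (median 7.02). Cd14, the lipopolysaccharide co-receptor, had 1318 against 8.90 CPM, Fn1 447 against 1.27 CPM and Chil3 207 against 0.317 CPM, the last in 25 members. Ccr2, S100a4 and Ly6c2 had 244, 1496 and 36.6 CPM in other tumour cells. They had log2 ratios of -0.90, -0.43 and 1.56 and were not called, and Ly6c2 was called higher in the 57 (2.15). Of 4 measured dendritic cell markers 3 were higher (median 5.63, 6.51 in the 57): Itgax, which macrophages share (154 against 2.65 CPM), Clec10a (26.8 against 0.601 CPM) and Cd209a (22.7 against 0.415 CPM in 4 members). Ccr7 was not called (76.4 against 60.7 CPM), and Xcr1 and Clec9a, which mark cross-presenting dendritic cells, had 4 and 2 UMIs.

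The cytokine genes were led in level by Il1b, the gene of the inflammatory cytokine IL-1β. Of 12 measured cytokine genes 11 were higher (median 6.79). Il1b ranged from 0 to 34647 CPM per member with a median of 1807, and was found in 89 of 117. It summed to 4848 CPM in members (5248 in the 57), 9477 CPM in neutrophil-like cells and 18.3 CPM in other tumour cells. The members and the neutrophil-like cells were therefore both far above the other cells, and the members were not 4-fold apart from neutrophil-like cells (log2 ratio -0.97). Il1a had 837 against 1.58 CPM, the receptor antagonist Il1rn 792 against 5.59 CPM, and Tnf 439.9 against 12.5 CPM.
Il23a, the p19 chain of IL-23, had 92.9 against 0.262 CPM but came from 15 members, 1 of which gave 25.2% of its 135 UMIs, and it had 67.4 CPM in the 57. Il12b, the p40 chain that IL-23 shares with IL-12, had 87 UMIs in 2 members, 97.7% of them in 1 member with T cell transcripts, and 0 in the 57. Il10, which restrains inflammation, had 226 against 9.25 CPM in 32 members, and Il6 had 53.7 against 0.273 CPM. Tgfb1 had 452 CPM in members and 505 CPM in other tumour cells (log2 ratio -0.16) and was not called.

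All 15 measured chemokine genes were higher (median 7.28). Those almost absent from other tumour cells were measured through the members alone. Cxcl2, which attracts neutrophils through Cxcr2, ranged from 0 to 101166 CPM per member with a median of 4218, and summed to 12013 CPM in members, 37113 CPM in neutrophil-like cells and 235 CPM in other tumour cells. It was among the most abundant of the listed transcripts in members. The neutrophil attractants Cxcl1 and Cxcl3 had 859.8 and 1110.4 CPM in members against 2.66 and 48.3 CPM in other tumour cells. The monocyte attractants Ccl2, Ccl7 and Ccl12 had 242, 139 and 152 CPM against 0.491, 0.0437 and 0.0983 CPM.
The inflammatory chemokines Ccl3 and Ccl4 had 1446 and 2400.5 CPM against 14.4 and 22.3 CPM. Cxcl16, the ligand of Cxcr6, a chemokine receptor of T cells, had 422 against 2.92 CPM and was spread over 86 members. Ccl24, an eosinophil attractant, was not: 9 members held all 687 UMIs and 1 gave 54.7%, so that its level was 473 CPM in all members and 137 CPM in the 57. The interferon-induced Cxcl10 had the lowest ratio of the 15 (209 against 48.0 CPM, log2 2.12), and 2 of 7 measured interferon response genes were higher (median 1.74).

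**Figure D2:**
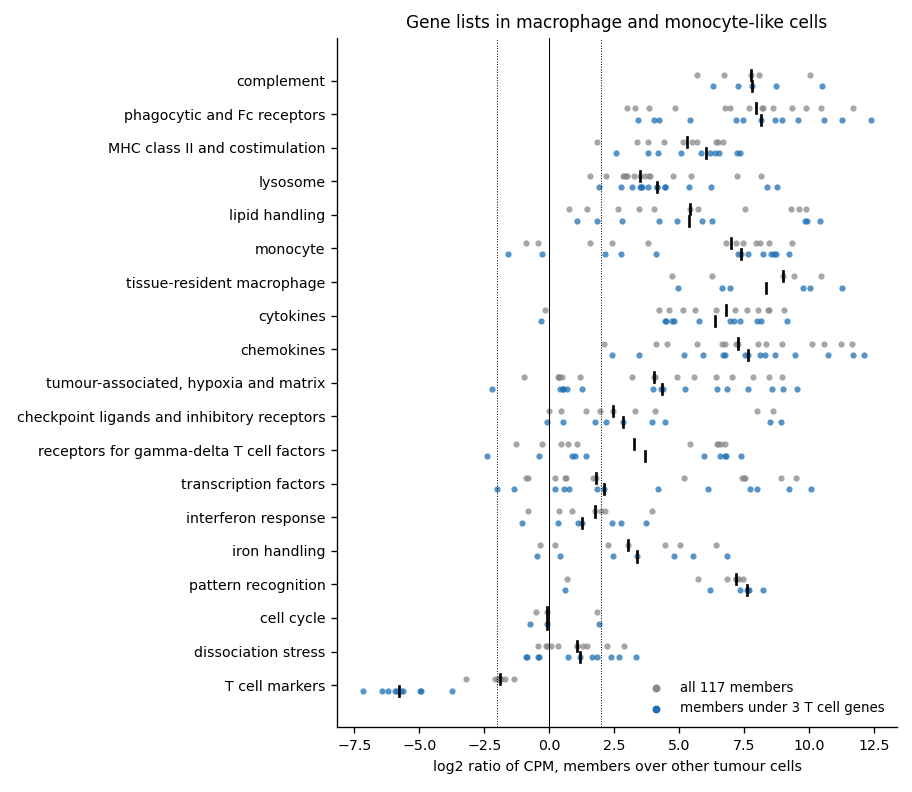
Log2 ratio of CPM in members over other tumour cells (horizontal) for each measured gene of 19 gene lists, without the rule genes, in all 117 members (grey) and in the 57 with under 3 T cell genes (blue), with black bars at medians and dotted lines at 4-fold. Complement, phagocytic, resident, chemokine and cytokine genes lie far to the right, and cell cycle genes lie near 0. Dissociation stress genes lie at a median of 1.06 in all members and 1.18 in the 57. The T cell markers lie at a median of -1.90 in all members and -5.77 in the 57.

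Of 16 measured genes linked to tumour macrophages, hypoxia and matrix, 10 were higher (median 4.05). Thbs1, an adhesive glycoprotein, had 979.6 against 2.80 CPM. Spp1, osteopontin, had 1047 against 114 CPM in 41 members, with 29.5% of its UMIs in 1. Arg1, arginase, had 256 against 5.31 CPM in 25 members, with 35.5% in 1, and Vegfa had 170.0 against 5.56 CPM. Hilpda, Bnip3 and Slc2a1 of the same list were not called (log2 ratios 0.37, 0.36 and 1.19), and Hif1a had 492 CPM in members, 212 CPM in the 57 and 974 CPM in other tumour cells, called lower in the 57 alone. Nos2 was under the 20 CPM minimum, with 27 UMIs in 4 members.
Of 9 measured checkpoint ligands and inhibitory receptors 5 were higher (median 2.47). Cd274, which encodes PD-L1, had 123 against 22.1 CPM, and Sirpa, the receptor for the CD47 signal, 154 against 0.601 CPM. Lilrb4a had 335 against 19.9 CPM. Havcr2 (TIM-3) and Vsir (VISTA) had log2 ratios of -0.01 and 0.47 and were not called.

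Among receptors for factors that γδ T cells can release, the GM-CSF receptor stood out against other tumour cells. It was not called against neutrophil-like cells. Csf2ra, Csf2rb and Csf2rb2 had 214, 381 and 120.5 CPM in members against 4.94, 4.19 and 1.09 CPM in other tumour cells, and with Ltbr and Tnfrsf11a they were the 5 higher of 10 measured (median 3.26). The IL-17 receptor chain Il17ra was not called (55.1 against 40.2 CPM) and its partner Il17rc had 1 UMI. The interferon-γ receptor chain Ifngr1 had 343 CPM in members, 159.5 CPM in the 57 and 836 CPM in other tumour cells, lower by the 4-fold rule in the 57 only. Of 13 measured transcription factors 6 were higher (median 1.81), with Spi1, Cebpa (59.2 against 0.328 CPM) and Tfec (21.3 against 0.0437 CPM) among them, and Zeb2, Irf8 and Klf4 not called.
Iron genes and innate sensors were mostly higher than in other tumour cells. The sensors were not called higher than in neutrophil-like cells, as given below. Of 7 measured iron handling genes 5 were higher (median 3.04), and Hmox1, haem oxygenase, had 501 against 5.90 CPM. Of 7 measured pattern recognition genes 6 were higher (median 7.19), among them Tlr2 (152 against 1.33 CPM), Nlrp3 (369.7 against 6.94 CPM) and Clec4e (324 against 2.07 CPM). Of the cell cycle genes 3 were measured and 0 were called (median -0.09), and of 11 dissociation stress genes 2 were higher, Atf3 and Egr1 (median 1.06).

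The members were not uniform in C1q. They fell into 86 with at least 2 summed C1q UMIs (C1q-high), 28 with 0 (C1q-zero) and 3 with 1. Because the rule asks for 3 of 7 genes, each C1q-zero member had to hold at least 3 of Csf1r, Adgre1, Lyz2 and Cd68. The C1q-zero members had 6584 to 21758 UMIs (median 12239), and 0 of them had fewer than 2000 UMIs, while 14 of the 86 C1q-high members did. The C1q groups are ranges of 1 transcript group, not cell types. Of 1639 genes at 100 CPM or more in either group, 163 (9.95%) were at least 2-fold higher in C1q-high members and 129 (7.87%) at least 2-fold lower. Among the 57 (39 C1q-high, 16 C1q-zero) these were 250 (15.4%) and 195 (12%) of 1619 genes, with 123 and 97 called in both. T cell transcripts moved with this split: 47 of 86 C1q-high and 12 of 28 C1q-zero members held 3 or more T cell genes, and 4 of 8 measured T cell markers were called higher in C1q-high members. Values in the 57 are given beside some of the results that differ there.

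The genes furthest toward C1q-high members included Apoe, chemokines and tetraspanins. Apoe had 16341 CPM in C1q-high and 1263 CPM in C1q-zero members (log2 ratio 3.69, 4.14 in the 57), and the single cells overlapped. Pf4, Ccl12, Zmynd15, Adamdec1 and Ptgs1 had 0 UMIs in the 28 C1q-zero members. Against a floor of 3 UMIs over that group, Pf4 was at least 31.4-fold higher in C1q-high members and Ptgs1 at least 13.6-fold. Ms4a7 had 338 against 8.34 CPM, and Cd63, a lysosomal tetraspanin, 779 against 33.4 CPM. Cd81, another tetraspanin, had 225 CPM against 1 UMI (log2 ratio 6.34, 3.85 to 11.65). Gpnmb, at 226 against 5.56 CPM, rests on the single member named above.
Of 15 lysosome genes 12 were higher in C1q-high members and 0 lower (median 1.47, against 0.07 over all genes), and 14 were in the 57 (median 1.99). Ctsd had 1367 against 303 CPM and Lgmn 781 against 195 CPM. Trem2 had 266 against 55.6 CPM, and Axl 172 against 8.34 CPM. Il10 had 273 against 58.4 CPM and Tnf 522 against 211 CPM, both called higher.

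Genes of the monocyte list were higher in C1q-zero members. Of 12 measured monocyte genes 9 were lower in C1q-high members and 0 higher (median -2.12), and in the 57 these were 7 and 0 (median -1.54). Plac8, a monocyte and plasmacytoid cell protein, had 3822 CPM in C1q-zero and 239 CPM in C1q-high members (log2 ratio -4.00, -3.94 in the 57). It was found in 28 of 28 C1q-zero members and in 26 of 86 C1q-high members. Ly6c2 had 306 against 37.9 CPM, and the interferon-induced Ifitm6 300.4 against 14.2 CPM. Chil3 and Cd14 were lower in C1q-high members when all members were used (log2 ratios -2.12 and -1.15) and were not called in the 57, where Chil3 had the opposite sign (0.68 and -0.40). Dendritic cell markers lay on the same side, at a summed 478 CPM in C1q-zero and 236 CPM in C1q-high members, where 1 of 2 measured, Ccr7, was lower in C1q-high members (median -0.63). In the 57 they summed to 792 and 301 CPM, and 3 of 4 measured were lower in C1q-high members and 1 higher (median -3.48). Their part in the monocyte gene differences was not tested.
Among the genes furthest toward C1q-zero members were 4 that encode secreted proteins. Saa3, serum amyloid A3, had 556 against 9.46 CPM, and Slpi, a leukocyte protease inhibitor, 3686 against 199.7 CPM. Slpi ranged from 0 to 41155 CPM per C1q-zero member, with 27606 and 22087 CPM next below, so its summed level rests largely on a few members. Cxcl3 had 2612 against 354 CPM and Thbs1 2339 against 376 CPM. Arg1, of the tumour-associated list (2 higher and 4 lower of 13 measured), had 589.7 against 149 CPM. A large part of the Arg1 UMIs came from the single member named above. In the 13 C1q-zero members with 50 or more class II UMIs, Arg1 had 6.06 CPM. Adora2b, an adenosine receptor, had 100.1 against 6.63 CPM. Slc25a37 and Ifi205 ended the list, at 108 and 161 CPM against 8.52 and 15.1 CPM, and both fell under 100 CPM in the 57. Il1b had 8256 against 3349 CPM and was lower in C1q-high members (log2 ratio -1.30), but was not called in the 57 (-0.57).
Class II genes did not divide along this line. Of 8 measured MHC class II and costimulation genes 0 were called either way (median -0.29, -0.34 in the 57), with H2-Aa at 2779.8 CPM in C1q-high and 3655 CPM in C1q-zero members.

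**Figure D3:**
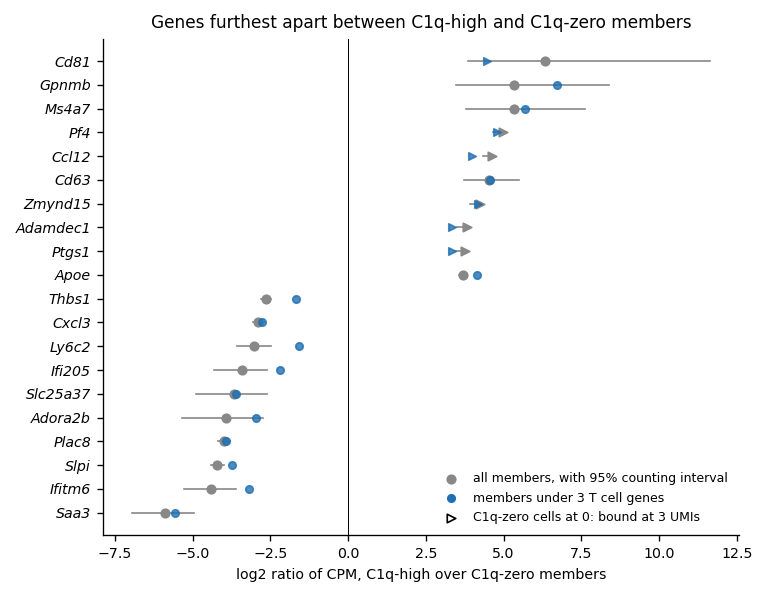
Log2 ratio of CPM in C1q-high over C1q-zero members (horizontal) for the 20 genes furthest apart, in all members (grey, with 95% counting intervals) and in those with under 3 T cell genes (blue), where triangles mark genes with 0 UMIs in C1q-zero members set at 3 UMIs. Every gene keeps its side of 0 in both sets. Among the genes closer to 0 in the smaller set are Ly6c2, Thbs1, Ifi205, Ifitm6, Adora2b and, as a bound, Cd81.

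**Figure D4:**
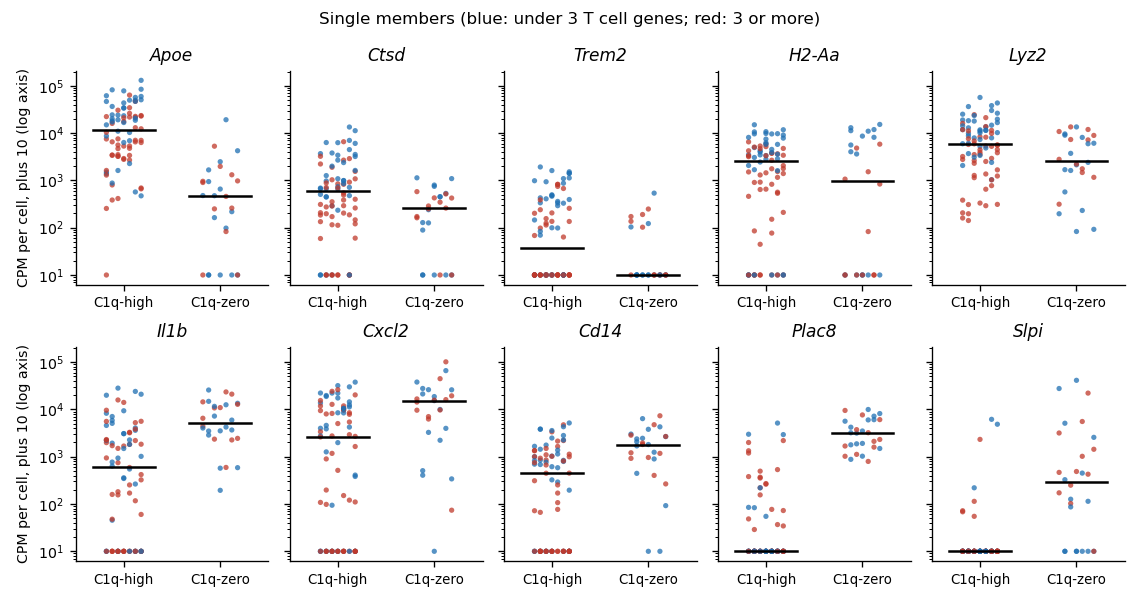
CPM of 10 genes in each C1q-high (86) and C1q-zero (28) member, plus 10 on a log axis, coloured by whether the member held under 3 (blue) or 3 or more (red) T cell genes, with black lines at medians. Apoe sits higher in C1q-high members and Plac8 in C1q-zero members, while H2-Aa spreads from 0 to 14981 and 15231 CPM in the C1q-high and C1q-zero members. Trem2 was found in 43 of the 86 C1q-high and 8 of the 28 C1q-zero members, and the others lie at 0.

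The other myeloid cells that the rule names are the neutrophil-like cells of the same library. They were the 64 tumour cells with UMIs of at least 2 of Csf3r, Cxcr2 and Retnlg, and the normal colon library held 0. They had a median of 5430 UMIs and 17 of 64 held 3 or more T cell genes. Of 1620 genes at 100 CPM or more in either class, 113 (6.98%) were at least 4-fold higher in members and 119 (7.35%) at least 4-fold lower. Without the cells of either class that held 3 or more T cell genes, 525 (32.1%) and 179 (11%) of 1634 genes were called, so that the number of higher genes depended on those cells.
Antigen presentation separated members from neutrophil-like cells. Of 8 measured MHC class II and costimulation genes 7 were higher in members (median 3.60, against 0.48 over all genes), and without cells with T cell transcripts 8 of 8 were (median 6.37). H2-Ab1 had 3442 CPM in members and 195 CPM in neutrophil-like cells, and H2-Eb1 2730.2 and 147 CPM. Of these UMIs in neutrophil-like cells 1 droplet of 33808 UMIs gave 95.3% and 87.7%, and the 47 neutrophil-like cells with fewer than 3 T cell genes had 8.23 and 16.5 CPM. Of 14 measured lysosome genes 12 were higher (median 2.55). Arg1, Ccl24, Lrp1, an endocytic receptor, and Timp1, a metalloproteinase inhibitor, had 0 UMIs in neutrophil-like cells against 256, 473, 178 and 110.2 CPM in members. For Timp1 1 member gave 48.1% of the UMIs.
Neutrophil granule and cytosolic genes lay on the other side. S100a9 had 24.1 CPM in members and 69415 CPM in neutrophil-like cells, and S100a8 88.1 and 51863 CPM. Cstdc4, Asprv1, Ngp and Mrgpra2b had 0 UMIs in members and 2037, 1192, 816 and 453 CPM in neutrophil-like cells. Stfa2l1 and G0s2 had 1 and 7 UMIs in members. Some genes of the monocyte list were lower in members than in neutrophil-like cells: Cd14 (1318 against 6730.5 CPM), Hp (161 against 1072 CPM) and Ifitm6 (85.4 against 664 CPM), 3 lower and 2 higher of 11 measured. Cytokines did not separate the classes as a group, with 1 of 8 measured genes higher in members, Il10, and 0 lower (median 0.08). Nor did the receptors for γδ T cell factors, of which 0 of 6 measured were called either way (median -0.001). Of 6 measured pattern recognition genes 0 were higher and 3 lower in members (median -1.97).

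**Figure D5:**
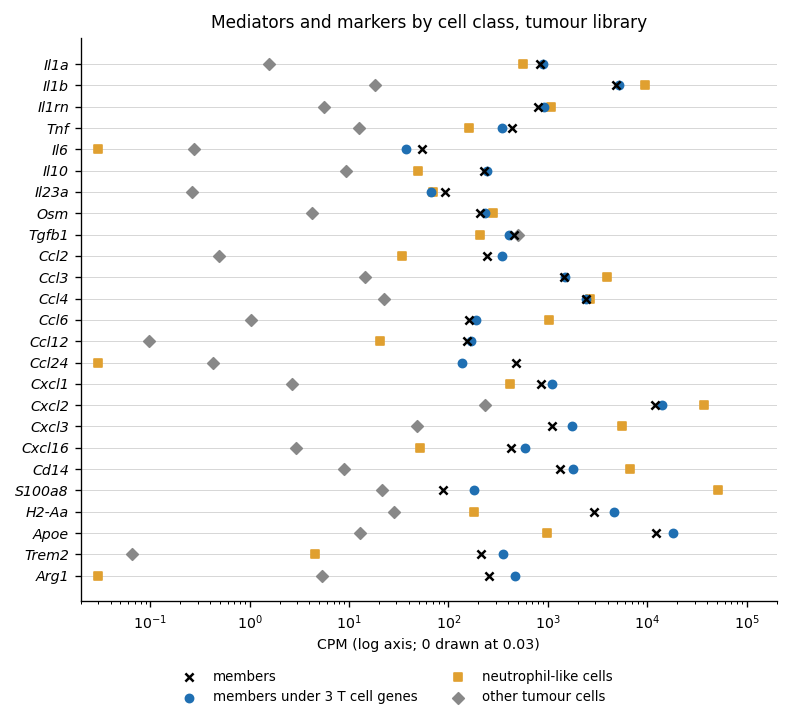
Summed CPM (log axis, with 0 drawn at 0.03) of 25 genes in members, in members with under 3 T cell genes, in neutrophil-like cells and in other tumour cells. Il1b, Il1rn, Osm and Ccl4 lie close together in members and neutrophil-like cells, while H2-Aa, Apoe and Trem2 lie to the right in members and S100a8 in neutrophil-like cells, whose H2-Aa and Apoe points rest on 1 droplet.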

How the data were processed

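Single-cell RNA was measured in 1 tumour (TIL) and 1 normal colon (IEL) library. Each deposited matrix gives raw UMI counts (whole numbers) of 32285 genes per cell barcode, per the file headers. Cell Ranger 6.1.1 and mm10 are listed in the submitters' processing notes without a role, and other settings are not given in the sources used here. The TIL library held 94953893 UMIs in 13245 barcodes and the IEL library 69414155 in 9398, and the cell filters kept 93.7% and 97.1%.

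The members and gene lists were chosen with earlier results of these data known. UMIs were summed per class of cells, scaled per 1000000 (CPM) and compared as ratios with exact 95% intervals conditional on the summed counts. A gene was measured at 20 CPM in either class (100 CPM within members and against neutrophil-like cells) and called at 4-fold (2-fold within members) with an interval clear of 1. For a gene almost absent from one class, the minimum is met through the other class alone, which largely sets its call. Counts of 0 were set to a floor of 3 UMIs. Shares used exact Clopper-Pearson intervals after thinning to 2000 UMIs. UMIs are counted molecules, so intervals and floors cover counting error only. Other tumour cells are neither members nor neutrophil-like, and T cells are those of them that held at least 2 of Cd3d, Cd3e and Cd3g. Doublets were not removed.

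Genes named by rank were the 20 furthest higher and 8 furthest lower than in other tumour cells, by the interval bound nearest 1, among called genes at 100 CPM or more, without rule, ribosomal, mitochondrial, haemoglobin, immunoglobulin, receptor segment, sex-linked and unnamed model genes. Within members 10 were taken each way, and 8 against neutrophil-like cells. Genes of the lists were named freely beside their list's count. Some genes that the rule or lists name are not reported here. The ratio step was tested on simulated data. Alternatives changed the rule, CPM minimum, centring, weighting of cells, thinning and droplets with T cell transcripts. Removal of each gene's highest cell was added after seeing the data. Python 3.11.15, numpy 2.4.6, scipy 1.17.1, pandas 2.3.3 and matplotlib 3.10.9 were used.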

Additional observations from a re-analysis of the deposited data

How the results depend on the processing

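The share of members was 0.733% with 4 required genes, 0.717% with 0 neutrophil genes allowed, and 0.459% (57 cells) without members with T cell transcripts. Against other tumour cells, the higher genes numbered 1349 with no CPM minimum and 319 at 50 CPM. The lower genes numbered 684 without members with T cell transcripts (819 when each gene's highest member was also left out, an alternative chosen after seeing the data), 63 with ratios centred on the median gene, 335 with no minimum and 44 at 50 CPM. Between C1q-high and C1q-zero members, the higher genes numbered 250 without T cell transcripts, 391 at 50 CPM and 75 at 200 CPM, and the lower genes 195, 219 and 79, and 203 when centred. Against neutrophil-like cells, the higher genes numbered 525 without T cell transcripts, 252 by the mean of per-cell CPM, 251 at 50 CPM and 60 at 200 CPM, and the lower genes 179 without T cell transcripts and 75 at 200 CPM. C1qa was found in 70.1% of members without thinning. A higher CPM minimum tests fewer genes by construction, and for the other settings the cause was not tested. Of the values of genes named by rank under these alternatives, 220 of 280, 119 of 160 and 70 of 96 moved by less than their error in the 3 comparisons, and 0 reversed. No paired analysis was possible because each tissue has 1 library. In depth, 14 of 117 members had fewer than 2000 UMIs, and 1 member gave most UMIs of Gpnmb, Il12b and Ccl24.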

Other observations

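The C1q-zero members differed among themselves in class II transcripts. At a limit of 50 summed class II UMIs, chosen after the values were seen, 13 lay above (58 to 546 UMIs, median 274) and 15 below (0 to 40, median 0), with median totals of 12146 and 12332 UMIs. Members with 3 or more T cell genes numbered 3 of the 13 and 9 of the 15. Of the 13, 8 held Ccr7, the chemokine receptor of migrating dendritic cells, 4 held Cd209a, a marker of monocyte-derived dendritic cells, and 2 held Chil3. Ccr7 was also held by 5 of the 37 C1q-high members with 50 or more class II UMIs. Without thinning it was found in 12.3% of tumour T cells. In the members that held Ccr7 or Cd209a these transcripts go against the label, and whether they are dendritic cells was not tested. Of the 15, 0 held Ccr7 or Cd209a, 14 held Chil3 and 12 held Ly6c2. Ly6c2 was also held by 7 of the 13, and Plac8 had 2891 CPM in the 13 and 4611 CPM in the 15. Slpi had 412 CPM in the 13 and 6462 CPM in the 15, Arg1 had 6.06 and 1085 CPM, and Thbs1 had 1091 and 3398 CPM. Il1b did not follow this order, at 8608 and 7958 CPM. The Slpi level of C1q-zero members rests largely on a few members, and a large part of their Arg1 UMIs came from a single member. The class II genes that were called in neither direction between C1q-high and C1q-zero members as groups therefore ranged from 0 to 546 UMIs per cell within the C1q-zero members alone. These are values from 28 cells of 1 library with a limit set on the same cells, so they carry no test.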
